A study of Mus musculus with 12 samples.

Results

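Prune2 and Bnip2 are a pair of mouse genes whose proteins carry a BCH domain, and they were chosen by gene name as 2 of the 54532 genes listed in the count table. Both were among the 13571 genes with enough counts to be tested. Prune2 had been named before from its high level in the cortical fraction of unwounded cells, so that difference is given here as a description with no test. Which values, if any, led to the choice of Bnip2 is not recorded.

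The BCH domain (named for BNIP2 and the Cdc42 GTPase-activating protein) is a protein-binding fold of the CRAL-TRIO or Sec14 class. BCH proteins act as scaffolds that bring small GTPases such as Cdc42 together with their regulators, and so bear on cell shape, adhesion and migration. Bnip2 is a small scaffold of this kind, first found as a partner of BCL2. Prune2 is a much larger protein whose amino-terminal region resembles the phosphoesterase Prune and whose carboxyl-terminal end holds the BCH domain, and it is best known from nervous tissue.

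The 12 poly-A RNA libraries were made from mouse keratinocytes in culture, cells that build the epidermis, and formed 4 groups of 3 biological replicates. Per the labels, all cells had the genotype WT DP-BirA(1-584), an amino-terminal piece of desmoplakin, a desmosome protein, joined to the biotin ligase BirA. All received doxycycline at 2 µg/mL, which turns the fusion on, calcium at 1.2 µM as the labels write it, and biotin for 16 h, and the cells were left unwounded or were wounded by scratching. Translating material from sucrose gradients was passed over neutravidin, and RNA held by the resin is called cortical here while RNA of the depleted remainder is called total. Each treatment thus had a total and a cortical group. No group without the ligase entered these comparisons, so how much RNA the resin holds without labelling by the ligase was not tested. The labels do not say whether same-group libraries came from separate cultures, and the p-values measure the spread between these libraries.

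Libraries held 8980013 to 23457548 counts. Wounded total replicate 1 stood apart, with counts for 13117 genes against 14393 to 16867 in the others, and the main results on the pair that rest on it are also given without it. All 10 keratinocyte markers passed the count filter, and their summed level was 10957 to 12064 CPM (counts scaled to a common library size) in unwounded total, 15396 to 15505 in unwounded cortical, 17579 to 20186 in wounded total and 20885 to 21205 in wounded cortical libraries. Of 6 neuron and glia markers 2 passed, Snap25 was at 0 in all libraries, and the sum, led by Mbp, was 26.2 to 35.4, 31.0 to 39.3, 37.8 to 42.6 and 38.5 to 43.4 CPM in the same order. Of 4 immune markers only 1 passed and Tyrobp was at 0. Their sum, led by Cd68, was 17.8 to 24.9 CPM in unwounded and 32.9 to 58.7 in wounded libraries. Melanocyte, fibroblast and endothelial markers summed to at most 2.27, 6.47 and 1.87 CPM, with Tyr, Tyrp1, Dcn and Cdh5 at 0. The part of these marker levels in the results on Prune2 and Bnip2 was not tested. In bulk libraries, fewer cells of a type and less RNA per cell cannot be told apart.

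Prune2 (ENSMUSG00000039126) lies at chr19:16956118-17223932 on the plus strand of GRCm38, and Bnip2 (ENSMUSG00000011958) at chr9:69989466-70008317, also on the plus strand. The merged exons of Prune2 span 20297 bases in the count table, longer than 99.4% of the tested genes, whose median is 3873 bases. Those of Bnip2 span 3455 bases. GENCODE M21 lists 9 Prune2 transcripts, 3 of them protein coding, and 8 Bnip2 transcripts, 5 of them coding. The one with the longest coding sequence has 20 exons and 9252 coding bases for Prune2, and 9 exons and 1044 coding bases for Bnip2. The best ungapped match between these coding sequences was 557 bases long, in the same codon phase, with 67.3% of the bases identical. It covered coding bases 8548 to 9104 of Prune2, at the carboxyl-terminal end where the BCH domain is known to lie, and 340 to 896 of Bnip2. The 3 consecutive exon pairs 13 and 6, 14 and 7, and 15 and 8 in this block had equal exon lengths of 103, 132 and 87 bases. The first pairs are shown because they carry shared coding sequence by which these genes are kin. How reads from them were assigned to either gene was not tested. Sequences are reference sequence of GRCm38, 5′ to 3′ on the plus strand, and capitals mark bases identical in both genes. Exon 13 of Prune2 (chr19:17199113-17199215) and exon 6 of Bnip2 (chr9:70000843-70000945) shared 68.0% of their bases, and exon 14 (chr19:17199781-17199912) and exon 7 (chr9:70001980-70002111) shared 97 of 132, or 73.5%.
Prune2 exon 13: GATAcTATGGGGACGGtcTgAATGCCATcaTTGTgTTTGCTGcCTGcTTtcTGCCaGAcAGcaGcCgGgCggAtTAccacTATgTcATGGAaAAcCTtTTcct
Bnip2 exon 6: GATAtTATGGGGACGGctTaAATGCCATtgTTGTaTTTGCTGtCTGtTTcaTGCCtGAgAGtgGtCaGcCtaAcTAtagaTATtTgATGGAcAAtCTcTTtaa
Prune2 exon 14: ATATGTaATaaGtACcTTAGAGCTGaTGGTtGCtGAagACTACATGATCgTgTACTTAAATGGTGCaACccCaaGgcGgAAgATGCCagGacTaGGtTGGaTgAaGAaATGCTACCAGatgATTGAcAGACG
Bnip2 exon 7: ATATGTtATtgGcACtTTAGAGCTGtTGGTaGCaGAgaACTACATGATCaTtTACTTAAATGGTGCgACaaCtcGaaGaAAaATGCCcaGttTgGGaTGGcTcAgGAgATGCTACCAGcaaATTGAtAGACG
The differing bases were spread along both pairs. The longest exact run shared by any transcripts of Prune2 and Bnip2 was 14 bases, and the longest that either shared with another BCH gene was 17 bases. All 3 coding transcripts of Prune2 and 4 of the 5 of Bnip2 held the exon pairs of equal length. Counts per gene do not separate the isoforms. Of the genes that overlap Prune2, Gm27970 and Gm27796 on the opposite strand had 0 counts. Gm28731, on the opposite strand at the start of Bnip2, had 6 counts in 1 library. The libraries were non-directional, so the strand of a read in a shared stretch is not known.

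Prune2 mRNA was low in total fractions and high in cortical ones. In unwounded total libraries its level was 24.1, 26.2 and 30.6 CPM, and in unwounded cortical libraries 215, 204 and 231 CPM. In wounded total libraries it was 37.3, 25.6 and 28.4 CPM, and in wounded cortical libraries 89.6, 86.0 and 90.5 CPM. Each cortical library lay above each total library, and each unwounded cortical library above each wounded cortical one, while the total groups overlapped. The group means were 27.0 ± 3.28, 216 ± 13.5, 30.4 ± 6.09 and 88.7 ± 2.39 CPM (SD, n = 3) in the same order. By mean the order was unwounded cortical, wounded cortical, wounded total and unwounded total, and only the last neighbours overlapped. Raw counts ran from 456 to 5498, so that counting error was 1.35% to 4.68% of a value, against a coefficient of variation between replicates of 2.69% to 20.0%.

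Bnip2 mRNA was near one level in all 4 groups. It was 57.4, 65.3 and 52.4 CPM in unwounded total libraries and 60.9, 51.3 and 59.2 CPM in unwounded cortical libraries. It was 62.3, 60.3 and 63.3 CPM in wounded total libraries and 47.1, 55.1 and 54.4 CPM in wounded cortical libraries. The means were 58.3 ± 6.49, 57.2 ± 5.11, 62.0 ± 1.57 and 52.2 ± 4.45 CPM (SD, n = 3). Neighbours in the order of means (wounded total, unwounded total, unwounded cortical, wounded cortical) overlapped each time, whereas the wounded groups did not overlap each other.

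**Figure D1:**
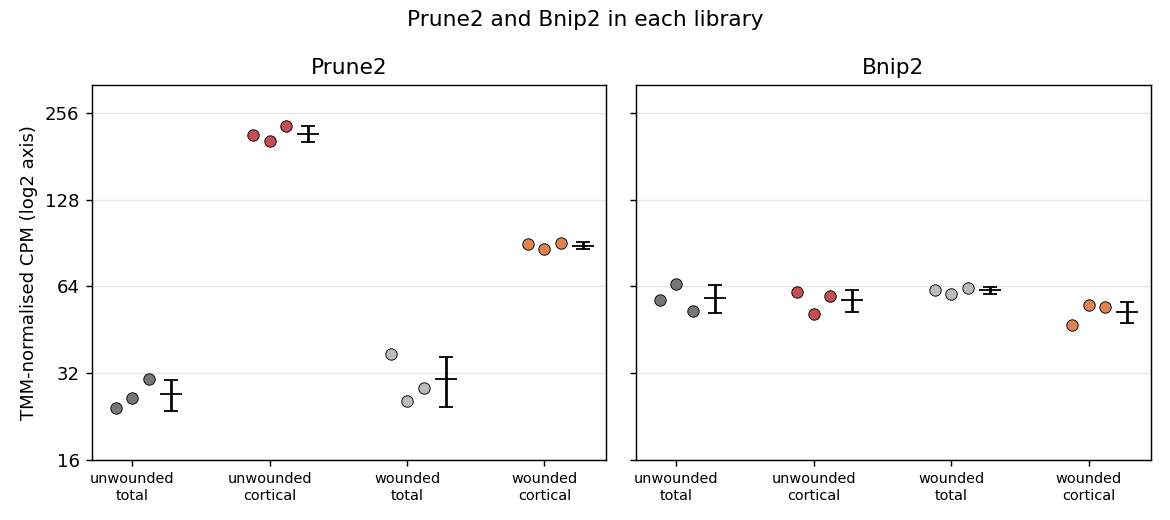
Level of Prune2 and Bnip2 in TMM-normalised CPM (vertical axis, log2 scale) by group, with a point per library and, beside the points, the group mean with SD error bars (n = 3). Prune2 lies at 204 to 231 CPM in unwounded cortical libraries and 86.0 to 90.5 in wounded cortical ones, above all total libraries, while every Bnip2 value lies between 47.1 and 65.3.

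By counts per merged exon length, Bnip2 lay above Prune2 in every library. FPKM, which divides counts by gene length and library size, averaged 1.31 ± 0.164 for Prune2 in unwounded total, 10.6 ± 0.695 in unwounded cortical, 1.504 ± 0.302 in wounded total and 4.301 ± 0.104 in wounded cortical libraries (SD, n = 3). For Bnip2 it averaged 16.6 ± 1.73, 16.5 ± 1.47, 18.0 ± 0.515 and 14.9 ± 1.25. Prune2 thus stood at the 30.4th percentile of tested genes in unwounded total, the 73.4th in unwounded cortical, the 33.9th in wounded total and the 54.7th in wounded cortical libraries. Bnip2 stayed between the 78.8th and 80.8th. The deposited lengths merge all exons, which are longer than any single transcript. A level per length thus depends on which transcripts are present, and so can the order of Prune2 and Bnip2.

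The FPKM of Prune2 divided by that of Bnip2 in the same library does not depend on library scaling. It was 0.0716, 0.0685 and 0.0994 in unwounded total and 0.600, 0.676 and 0.663 in unwounded cortical libraries. It was 0.102, 0.0723 and 0.0763 in wounded total and 0.324, 0.266 and 0.283 in wounded cortical libraries. The cortical groups overlapped neither each other nor the total groups. In wounded cells the cortical mean exceeded the total mean by 0.208, with an exact two-sided permutation p of 0.1, the smallest that 3 against 3 libraries can give. Without wounded total replicate 1 the difference was 0.217. In raw counts, Prune2 had 0.402 to 0.598 times the counts of Bnip2 in total libraries, 1.56 to 1.90 times in wounded cortical and 3.53 to 3.97 times in unwounded cortical libraries.

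**Figure D2:**
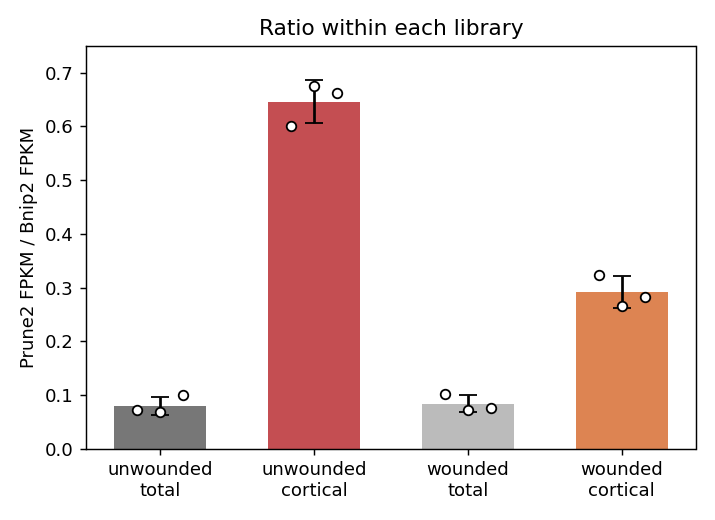
Ratio of Prune2 FPKM to Bnip2 FPKM within each library (vertical axis, linear from 0), with columns at the group mean, SD error bars (n = 3) and a point per library. Total libraries lie at 0.0685 to 0.102, wounded cortical ones at 0.266 to 0.324 and unwounded cortical ones at 0.600 to 0.676.

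The comparison of cortical with total RNA asks which translated mRNAs lay near the desmoplakin fusion. In unwounded cells, Prune2 was 8.03-fold higher in the cortical fraction (95% interval 6.56 to 9.82, log2 fold change 3.0, SE 0.14). This is the comparison that named it, in which 6.62% of the tested genes were called higher at an adjusted p under 0.05 with the edgeR quasi-likelihood test. That split of calls, 898 higher and 1030 lower, was 1582 higher and 469 lower with library size alone. Prune2 ranked 24 of 13571 by fold change. The genes just above it were Gm43666 (log2 fold change 3.04, SE 1.93) and Psg27 (3.01, SE 1.37), and those just below were Tmppe (2.98, SE 1.87) and Gm11597 (2.97, SE 1.45), so that Prune2 had a far smaller error than its neighbours in that order. Bnip2 had a log2 fold change of −0.03 (SE 0.11, interval −0.27 to 0.21), its groups overlapping, where 7.59% of genes were called lower.

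Wounded cells gave a test between libraries other than those that had named Prune2. It is not fully independent of that choice, because scaling and the estimate of spread came from all 12 libraries. Both members were also chosen with earlier results of these data known. There Prune2 rose 2.92-fold in the cortical fraction (interval 2.40 to 3.54, log2 fold change 1.54, SE 0.13), with an edgeR adjusted p of 3.21e-06, and each of the 3 cortical libraries lay above each of the 3 total libraries. In that comparison 7.62% of the tested genes were called higher. The split of 1034 higher and 1090 lower calls was 2203 and 520 with library size alone and 365 and 1094 with the length trend removed. Without wounded total replicate 1 the log2 fold change was 1.71, with an edgeR adjusted p of 5.00e-10. Bnip2 had a log2 fold change of −0.25 (SE 0.11, interval −0.49 to −0.01) and did not pass the test, with an edgeR adjusted p of 0.158 and an unadjusted p of 0.0437. Its groups did not overlap. How many of all tested genes have groups that do not overlap is not given here, so overlap is only a description throughout. Without wounded total replicate 1 Bnip2 had −0.25 (edgeR adjusted p = 0.149). Lower calls made up 8.03% of the genes tested. In wounded cells the intervals of Prune2 and Bnip2 did not overlap.

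After wounding, Prune2 in the cortical fraction was 2.44-fold lower than in unwounded cells (interval 2.02 to 2.94, log2 fold change −1.29, SE 0.13), where 0.884% of tested genes were called lower and 1.6% higher (120 and 217, against 91 and 108 with library size alone). Its groups did not overlap. In the total fraction its log2 fold change with wounding was 0.17 (SE 0.13, interval −0.11 to 0.45), and the groups overlapped. Higher calls made up 8.39% and lower calls 7.2% of genes there, 1139 and 977, against 708 and 1104 with library size alone and 1909 and 664 with the length trend removed. Without wounded total replicate 1 that value was 0.0025. The cortical-to-total ratio of Prune2 was 2.75-fold lower in wounded than in unwounded cells (interval 2.10 to 3.60, log2 difference −1.46, SE 0.18), and the log2 difference was −1.29 without that library. In this interaction 0.103% of genes, 14 of 13571, were called lower and 0.0221% higher. These comparisons use the libraries that named Prune2 and are given with no p. For Bnip2 the log2 fold changes with wounding were 0.09 (SE 0.11) in total and −0.13 (SE 0.11) in cortical libraries, both groups overlapping, and the interaction was −0.22 (SE 0.16).

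Genes with longer merged exons tended to be higher in the cortical fraction, and Prune2 is among the longest by this measure. Its coding transcripts are 12512, 2115 and 1803 bases long, and counts per gene do not show which was present. Matching on length and removal of a length trend both rest on the merged length. Across the 13571 genes, which are not independent replicates, the Spearman correlation between the cortical-to-total log2 fold change and gene length was 0.335 in unwounded and 0.366 in wounded cells, and 0.311 and 0.384 without wounded total replicate 1. The 107 genes within 1.5-fold of Prune2 in length and within 1 log2 unit in mean level had a median log2 fold change of 0.30 in unwounded cells, with a range of −0.29 to 3.57. In wounded cells their median was also 0.30, with a range of −0.46 to 2.23. In both, 1 of the 107, Acaca (acetyl-CoA carboxylase), lay above Prune2, also without wounded total replicate 1. Among 419 genes matched on length alone, 2 lay above Prune2 in unwounded and 13 in wounded cells. Among 3216 genes matched on level alone, 1 did in each. The unwounded comparison is the one that named Prune2, so its place among matched genes there is a description. With a length trend removed from each library, Prune2 had a log2 fold change of 2.71 in unwounded cells, and the median of its 107 matched genes was 0.031. In wounded cells it had 1.10 (SE 0.12, edgeR adjusted p = 3.45e-05), which lies below the interval of the value without that step, and the median of the matched genes was −0.10.

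For the change of cortical Prune2 with wounding, the 107 matched genes had a median log2 fold change of 0.01 and a minimum of −1.12, so that 0 lay below Prune2. For the interaction their median was 0.03 and their minimum −1.34, again with 0 below Prune2, although 106 of the 107 lay above it without wounded total replicate 1. For the total fraction their median was 0.01 and 30 lay above Prune2, or 46 without that library. These comparisons use libraries that named Prune2, whereas the matched genes were not chosen by such values. The place of Prune2 among them is thus a description and carries no test. Bnip2 had 1366 genes of like length and level. In the unwounded cortical-to-total comparison their median was −0.03, with 682 above and 684 below Bnip2, and in wounded cells 0.01, with 1065 above and 301 below.

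**Figure D3:**
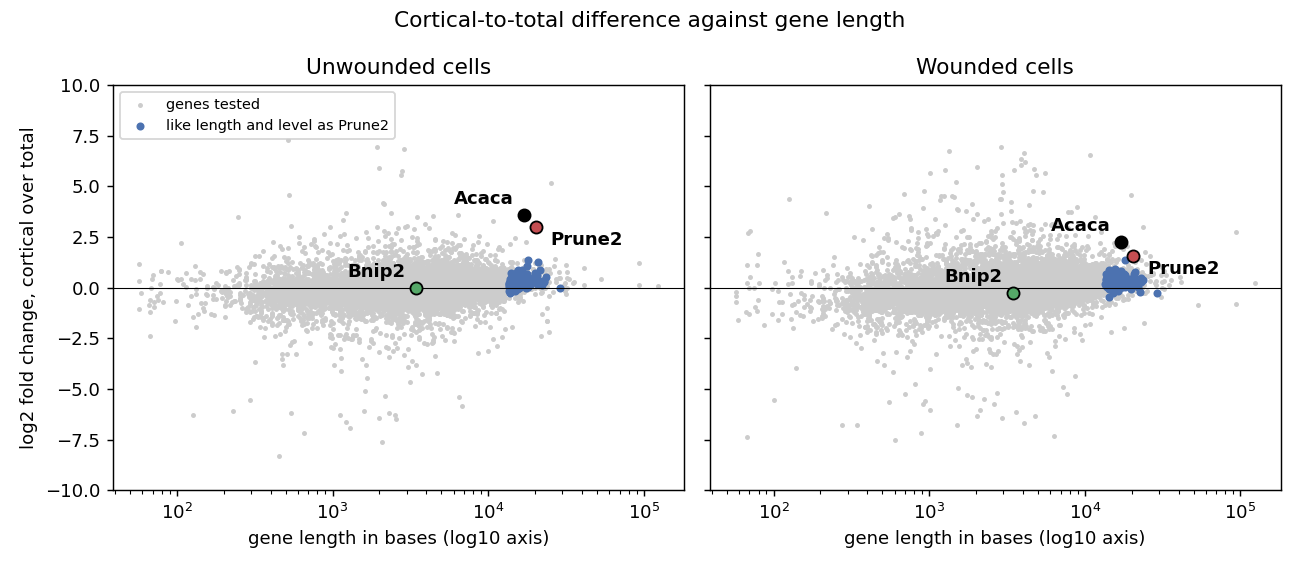
Cortical-to-total log2 fold change (vertical axis) against gene length in bases (horizontal axis, log scale) for tested genes in unwounded and wounded cells, with the 107 genes of like length and level as Prune2 in blue and Prune2, Bnip2 and Acaca marked. Prune2 (3.0 and 1.54) lies above all blue points except Acaca, and Bnip2 (−0.03 and −0.25) lies within the cloud.

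The genes beside each member on its chromosome had smaller cortical-to-total changes than Prune2. Those beside Bnip2 were called lower in unwounded and wounded cells, where 7.59% and 8.03% of tested genes were. Vps13a, 175 kb before Prune2, had a log2 fold change in the cortical fraction of 0.30 in unwounded cells (edgeR adjusted p = 0.287) and rose by 0.53 in wounded cells (edgeR adjusted p = 0.0449), a call lost without wounded total replicate 1 (0.47, edgeR adjusted p = 0.0618). Rfk, 170 kb after it, had −0.60 (adjusted p = 0.0512) and −0.34 (adjusted p = 0.274), also with edgeR, and passed in unwounded cells without that library (−0.61, edgeR adjusted p = 0.0172). Gtf2a2, a transcription factor subunit 4.23 kb after Bnip2, fell by 0.49 on the log2 scale in both (edgeR adjusted p = 0.0288 and 0.0262). Anxa2, an annexin 498 kb before Bnip2, fell by 0.38 and 0.60 (edgeR adjusted p = 0.0152 and 0.00112).

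Of 4 other BCH genes, 2 had enough counts to be tested, and 0 of these rose in the cortical fraction, where 6.62% of all genes in unwounded and 7.62% in wounded cells were called higher. Arhgap8 had 0 counts in all libraries and Atcay, a BCH gene of the brain, had 21 counts over 6 libraries. Bnipl, the closest relative of Bnip2 by name and a BCH protein, averaged 28.3 ± 2.57 CPM in unwounded total, 21.9 ± 0.708 in unwounded cortical, 35.2 ± 3.30 in wounded total and 23.6 ± 4.86 in wounded cortical libraries (SD, n = 3). It fell in the wounded cortical fraction (log2 fold change −0.58, SE 0.15, edgeR adjusted p = 0.018), and the call was lost without wounded cortical replicate 3, with library size alone, with only the compared groups in the fit, and with the length trend removed (adjusted p = 0.0648). In unwounded cells it had −0.37 (SE 0.16, edgeR adjusted p = 0.132). Arhgap1, the Cdc42 GTPase-activating protein of the domain's name, had log2 fold changes of −0.04 (SE 0.20) and 0.05 (SE 0.20). Prune1, the phosphoesterase that the amino-terminal end of Prune2 resembles, had 0.05 (SE 0.21) and −0.03 (SE 0.20), and neither it nor Arhgap1 passed in any of the 5 comparisons. With the length trend removed, Prune1 passed for wounding in total RNA (0.66, edgeR adjusted p = 0.0399).

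**Figure D4:**
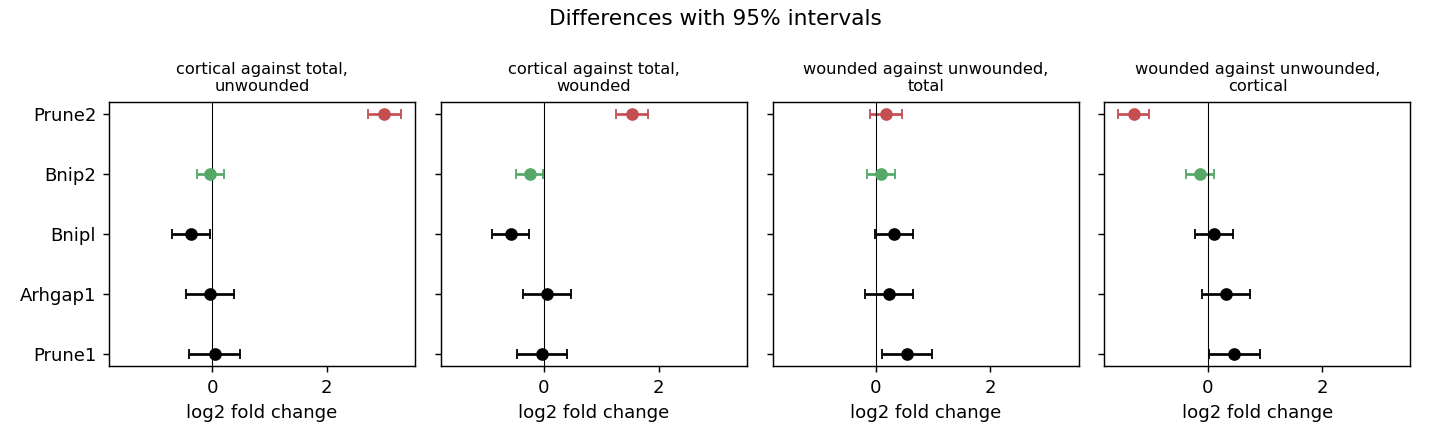
Log2 fold change (horizontal axis) of Prune2, Bnip2, Bnipl, Arhgap1 and Prune1, as points with 95% intervals, in a panel for each of the 4 comparisons between groups. Prune2 stands at 3.0 and 1.54 for cortical against total and at −1.29 for wounding in the cortical fraction, whereas the points of the other genes lie between −0.58 and 0.54.

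Wider lists showed scattered changes. Of 10 tested CRAL-TRIO genes of 18 listed, Nf1, a Ras GTPase-activating protein, rose in the cortical fraction of unwounded (log2 fold change 0.79) and wounded cells (0.64), and 0 fell, where 14.2% and 15.7% of all genes passed in either direction. Their median log2 fold change was 0.23 and 0.24, against 0.00 and 0.04 over all genes, and both calls were lost with the length trend removed. The unwounded call was also lost without unwounded total replicate 2 or unwounded cortical replicate 2, and the wounded call without any 1 of the wounded libraries other than total replicate 1, whose removal gave 4 calls in each treatment.

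Bnip2 takes its name from BCL2, and of 16 tested genes of the BCL2 and BNIP list, 2 rose and 3 fell in unwounded cortical RNA and 1 rose and 2 fell in wounded cortical RNA, so that 5 and 3 of 16 passed where 14.2% and 15.7% of all genes did. Bak1, a pro-death pore former, fell by 0.79 and 0.72 (edgeR adjusted p = 0.000240 and 0.000622). Mcl1, a survival protein, rose by 0.36 and Bmf, a sensor of cytoskeletal damage, by 1.84 in unwounded cells, while Bnip3 and Bax fell by 0.93 and 0.58. Bmf was low, at 1.04 ± 0.0829 CPM in unwounded total and 3.67 ± 2.34 CPM in unwounded cortical libraries (SD, n = 3). With the length trend removed, the calls of Bnip3 and Bax were lost (edgeR adjusted p = 0.154 and 0.0819). Bnip1 fell by 0.60 and Bbc3 rose by 0.48 in wounded cells. Their median was −0.03 and −0.08. Leaving out a library gave 1 (without unwounded total replicate 1, unwounded total replicate 2 or unwounded cortical replicate 1) to 7 calls (without wounded total replicate 1) in unwounded cells and 2 to 5 (without wounded total replicate 1) in wounded cells. Bik and Hrk had 0 counts.

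Of 6 tested subunits of kinesin-1, a motor that BNIP2 is known to bind, Kif5b rose by 0.45 and Klc1 fell by 0.35 in unwounded cortical RNA, and 0 passed in wounded cells, where 14.2% and 15.7% of all genes passed. Both calls were lost with the length trend removed (edgeR adjusted p = 0.0854 and 0.0534). Leaving out unwounded total replicate 1, unwounded cortical replicate 2 or unwounded cortical replicate 3 left 0 calls. Klc4 rose with wounding by 1.20 in total (edgeR adjusted p = 2.8e-05) and by 0.80 in cortical RNA (edgeR adjusted p = 0.00421), comparisons in which 15.6% and 2.48% of all genes passed, and Klc3 rose by 0.52 in total RNA. In total RNA after wounding, Bmf rose by 2.16, Bnip1 by 0.47 and Mcl1 by 0.35. The rise of Bmf was from the same low unwounded total level of 1.04 CPM to 4.68 ± 2.39 CPM (SD, n = 3). In the interaction 0 genes of these lists passed, where 0.125% of all genes did. Of the 19 calls in the BCH, CRAL-TRIO, BCL2 and kinesin-1 lists, 5 held in all 23 alternatives: Bak1 in both cortical-to-total comparisons, Bnip1 in wounded cells, and Klc4 with wounding in both fractions. All 19 kept their sign, and 14 were lost without some single library.

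Over the 12 libraries, the protein-coding mRNAs whose log2 CPM was most like that of Prune2, among 11501, were Ppp1r13l (Pearson r 0.992), Prr12 (0.991), Atf6b (0.990), Acaca (0.986) and Cep170b (0.981). Their cortical-to-total log2 fold changes in unwounded cells were 2.15, 1.63, 2.36, 3.57 and 2.12, and in wounded cells 1.24, 0.97, 1.08, 2.23 and 1.45. All 5 thus shared the larger difference in unwounded cells, which is what the likeness selects. For Bnip2 the most like were Tbca (r 0.836), Srp54a (0.818), Eif3e (0.816), Sumf2 (0.810) and Ccdc58 (0.804). The r between Prune2 and Bnip2 was −0.344. The libraries fall into 4 groups and share preparation, so these r describe the pattern and carry no test.

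**Figure D5:**
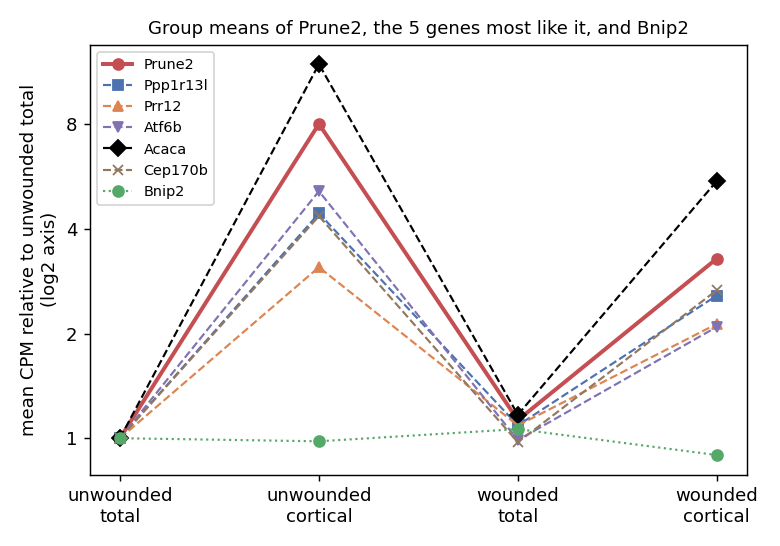
Mean CPM of each group relative to unwounded total (vertical axis, log2 scale) for Prune2, the 5 protein-coding genes most like it (r 0.981 to 0.992) and Bnip2. Prune2 and the like genes are highest in unwounded cortical and next highest in wounded cortical libraries, with Acaca above Prune2, while Bnip2 stays near the unwounded total level.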

How the data were processed

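Per the labels' protocols, the libraries were non-directional, from poly-A RNA with random hexamer priming. The authors deposited raw counts of fragments per gene, the gene length, and FPKM values. The deposited FPKM values equalled counts over gene length and a library size constant, which was 0.825 to 1.10 times a column's sum. The build mm10, CASAVA and HISAT2 are named in the submitters' processing notes, while the counting tool and annotation are not given in the sources used here. Groups came from the sample titles, and 0 per-sample columns were left unused.

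The count tests ran with edgeR 4.0.16 (R 4.3.3), and alternatives used limma 3.58.1 and DESeq2 1.42.0. Genes were filtered with filterByExpr and scaled with TMM factors of 0.831 to 1.10. All 12 libraries entered a single quasi-likelihood fit with group means, and 5 comparisons were tested two-sided with Benjamini-Hochberg adjustment over 13571 genes at 0.05. SE is that of the log2 fold change, with 95% intervals. CPM used TMM library sizes, and log2 CPM a prior count of 2. Genes of like length and level were within 1.5-fold in length and 1 log2 unit in mean level. Sequences were read from GRCm38 with GENCODE M21 by a script in python 3.11.15, and figures were drawn with matplotlib 3.10.9. The fits were tested on simulated data. Named genes were the members, list genes called in any comparison, overlapping and nearest genes, the 5 most like genes and those next to Prune2 in rank. The members and lists were chosen with earlier results of these data known. One further gene list is not reported here.

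Alternatives were RLE and library size scaling, DESeq2, limma-trend on log2 of FPKM plus 1 or 0.1, no filter, a mean count of at least 50, only the groups compared, the replicate block, a loess length trend (span 0.5) removed, and leaving out each library. The matched-gene medians under alternatives, and further values without wounded total replicate 1, were added after seeing the data. Counting error covers sampling of counts only.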

Additional observations from a re-analysis of the deposited data

How the results depend on the processing

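In the comparisons described without a test, 178 of 182 values of Prune2 and Bnip2 under the alternatives moved by less than the spread between replicates, and 4 moved by more. In the tested comparison, of wounded cells, all 46 kept their direction and their side of the threshold. There Prune2 nevertheless moved below its interval of 1.27 to 1.82, to 1.09 with log2(FPKM + 1) and to 1.10 with the length trend removed, with or without the replicate block. Prune2 in unwounded cells had a log2 fold change of 2.33 with log2(FPKM + 1) and 2.71 with the length trend removed, with or without the replicate block, and its change with wounding in cortical RNA was −1.13 with log2(FPKM + 1). In wounded cells Prune2 passed in all 23 alternatives (1.09 to 1.74, adjusted p 3.65e-28 to 0.00227) and Bnip2 in 0 (adjusted p 0.0991 to 0.884), with edgeR, DESeq2 or limma. The median of the 107 genes matched to Prune2 was 0.49 with library size alone, 0.23 with log2(FPKM + 1), 0.031 with the length trend removed, 0.028 with the block as well, and 0.29 to 0.34 without 1 library in unwounded cells. In wounded cells it was 0.52 with library size alone, −0.10 with the length trend removed, with or without the block, and 0.28 to 0.39 without 1 library. Scaling by library size only moved the all-gene median by 0.19 in unwounded and 0.21 in wounded cells. With log2(FPKM + 1) and log2(FPKM + 0.1), the calls in wounded cells split into 624 higher and 1023 lower, and 618 higher and 994 lower.

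The count of genes called depended more on the setting. In unwounded cells (1928) it was 3014 with only the compared groups and 949 to 3151 without 1 library. In wounded cells (2124) it was 970 with only the compared groups, 1365 with the block and length trend and 1084 to 3475 without 1 library. For wounding in total RNA (2116) it was 1175 with only the compared groups and 1128 to 3502 without 1 library. For wounding in cortical RNA (337) it was 199 with library size alone, 736 with DESeq2, 559 with no filter, 1423 with only the compared groups and 108 to 1276 without 1 library. For the interaction (17) it was 11 with library size alone, 72 with DESeq2, 10 with either FPKM pseudocount, 138 with no filter, 10 with the block, 30 with the length trend removed, with or without the block, and 4 to 413 without 1 library. The highest of each of these ranges came without wounded total replicate 1, and the lowest, in order, without unwounded total replicate 2, wounded total replicate 2, unwounded total replicate 1, wounded cortical replicate 1 and wounded cortical replicate 3. The cause was not tested.

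Same-numbered libraries shared little deviation: over 18 pairs the correlation of their deviations was −0.05 to 0.22, with 2 pairs over 0.1. Of the 12 libraries, 4, all from total groups, correlated best with a library of their own number. Such values cannot show whether both fractions of a replicate came from the same cells. With the replicate block, Prune2 in wounded cells had 1.55 (edgeR adjusted p = 1.15e-05) and Bnip2 −0.25 (edgeR adjusted p = 0.192). The smallest library, at 8980013 counts, still held 2267 Prune2 and 582 Bnip2 counts, whereas the BCH genes Atcay and Arhgap8 had too few counts to be tested.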
